A study of Homo sapiens with 4 samples.

Results

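The data compared are the GFP-positive (GFP+) and GFP-negative (GFP-) cells of a single human embryonic stem cell culture that was steered to the cardiac lineage and given retinoic acid (RA). The members are 2 of the 4 samples of the series, chosen by their labels as the RA-treated culture sorted into GFP+ and GFP- cells, with 1 RNA library each. The line is NKX2.5 eGFP/w, in which 1 allele of the cardiac transcription factor gene NKX2-5 carries the sequence of a green fluorescent protein, so that GFP marks cells with an active NKX2-5 locus. Spun embryoid bodies were given 1 µM RA from day 4 to day 7 and sorted on GFP at day 31. The other 2 samples are the GFP+ and GFP- cells of a separate culture of the same line, given the solvent DMSO over the same days (control), and they serve here as the background of the sort. The GFP- fraction is defined by the absence of GFP and so can hold any cell type that the embryoid bodies made.

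NKX2-5 is switched on in the cardiac progenitors of the early heart field and stays on in heart muscle cells, where it acts with GATA4, TBX5 and MEF2 factors on the genes of contraction. Embryoid bodies in a cardiac protocol also give rise to stromal, endothelial, mesothelial and endodermal cells, which share early mesendodermal ancestors with the cardiomyocyte. RA is a morphogen that acts through nuclear receptors, and it directs both the posterior, atrial part of the heart tube and the patterning of the foregut.

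Each gene was measured in CPM, its reads scaled to the size of the library, with TMM factors (trimmed mean of M-values, which adjust for a few genes that take up many reads) from all 4 libraries. The RA libraries held 28125727 (GFP+) and 26222787 (GFP-) reads assigned to genes, and those of the control held 28643091 (GFP+) and 4371101 (GFP-). At these depths 3 reads, the floor used for a count of 0, correspond to 0.112 and 0.117 CPM in the GFP+ and GFP- cells after RA. The difference is that of log2(CPM + 1), GFP+ minus GFP-, over genes with 10 CPM or more in either RA library, and a gene is called higher or lower from 2-fold on this scale. Fold values are ratios of CPM with 95% Clopper-Pearson intervals, which cover counting error only. With 1 library per group no difference has a replicate check and none was tested.

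The sort was clear in the gene on which the reporter stands. NKX2-5 (ENSG00000183072; hg19 chromosome 5, 172659112 to 172662314) was at 463 CPM in GFP+ and 9.74 CPM in GFP- cells after RA, a 47.5-fold difference (interval 41.9 to 54.0), against 593 and 14.5 CPM in the control. The cardiomyocyte markers TNNT2 (cardiac troponin T), ACTN2 (alpha-actinin of the Z-disc), MYH6, MYH7 and RYR2 (the calcium release channel) were between 13.8-fold and 62.0-fold higher in the GFP+ cells. The GFP- level of TNNT2 was 126 CPM, or 2.89% of the GFP+ level of 4371 CPM. In sorted bulk RNA, fewer cells of a type and less RNA per cell cannot be told apart, and this holds for every difference given here.

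Of the 60234 genes counted, 11850 passed the filter after RA. Among these, 1182 (9.97%) were at least 2-fold higher in GFP+ cells, 1474 (12.4%) were at least 2-fold lower, and 9194 lay within 2-fold; the median difference was 0.02. Genes at least 8-fold apart on the log2(CPM + 1) scale numbered 158 on the higher and 174 on the lower side. At least 32-fold apart on it were 20 higher and 0 lower genes, but the added 1 CPM shrinks differences that reach down to low levels, so that some ratios of CPM given here pass 32-fold on the lower side too. The higher genes took 30.3% of the GFP+ reads and 9.60% of the GFP- reads. The lower genes took 6.61% and 24.0%. All 16 mitochondrial genes past the filter were among the higher genes, and mitochondrial genes took 14.9% of GFP+ and 5.56% of GFP- reads. A gene can pass the filter through its higher fraction alone, which favours genes that differ, so these counts are a description of the libraries. Chosen after their values were seen, the genes next to the filter were SYT13 inside it (at most 10.0 CPM) and HIRIP3 outside it (at most 9.98 CPM).

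**Figure D1:**
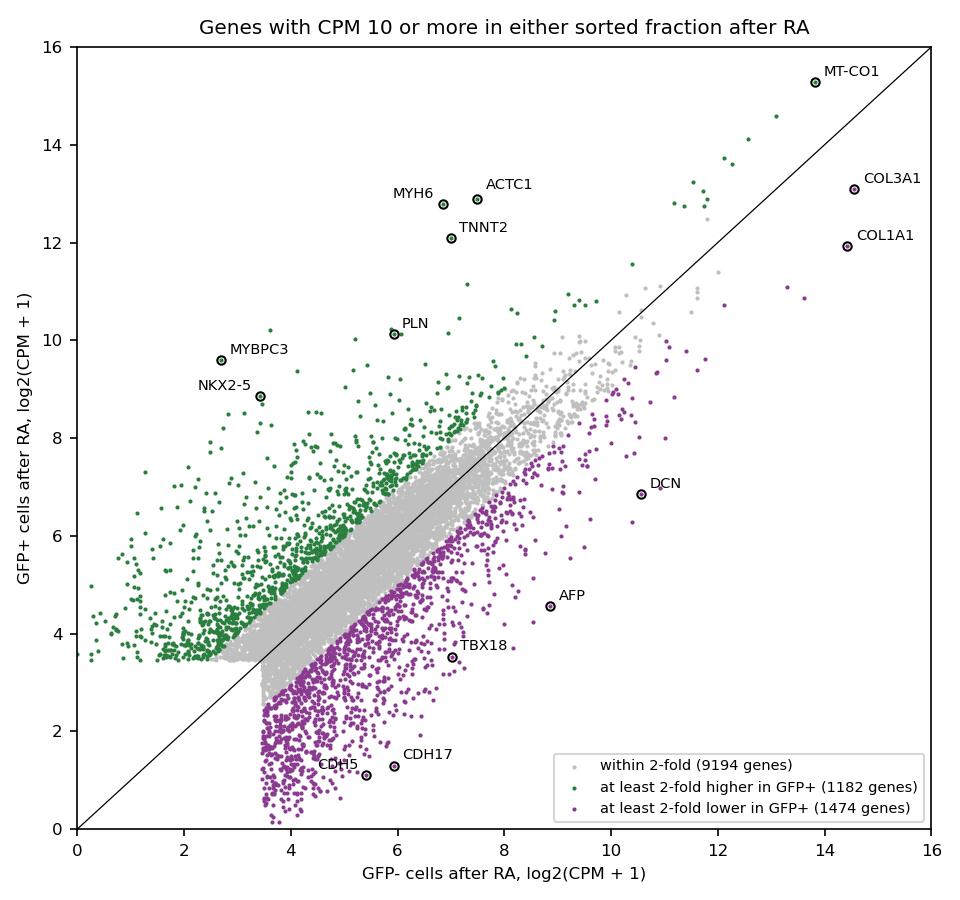
Level of each gene past the filter in GFP- cells (horizontal axis) and GFP+ cells (vertical axis) after RA, as log2(CPM + 1), 1 point per gene (green at least 2-fold higher in GFP+ cells, purple at least 2-fold lower) and the line of equal levels in black. MYBPC3, MYH6, TNNT2 and NKX2-5 stand far above the line, and AFP, CDH17, CDH5 and DCN far below it.

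Genes of contractile proteins were among the largest differences on the GFP+ side. Of 32 listed sarcomere genes, 27 passed the filter, 26 of them were at least 2-fold higher in GFP+ cells and 0 were lower. Their median difference was 4.36, against 0.02 over all genes past the filter. The largest difference of log2(CPM + 1) of any gene with a name was that of MYBPC3 (ENSG00000134571), cardiac myosin-binding protein C, at 769 and 5.50 CPM (139.9-fold, interval 119 to 166). The alpha heavy chain MYH6 was at 7088 against 114 CPM (62.0-fold, interval 59.8 to 64.4). The beta chain MYH7, the slow isoform, was at 664 against 16.4 CPM (40.6-fold, interval 36.8 to 44.8). Cardiac actin ACTC1 was at 7538 against 179 CPM (42.1-fold, interval 40.9 to 43.3), and it stood among the 10 genes with the most reads in GFP+ cells.

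Several proteins of the Z-disc stood among them. CSRP3 (muscle LIM protein), LDB3 (a PDZ-LIM adaptor), XIRP1 (an actin-binding Xin repeat protein) and ACTN2 were all among the 15 largest differences. CSRP3 was at 358 and 6.12 CPM, LDB3 at 363 and 7.72 CPM, XIRP1 at 169 and 3.20 CPM and ACTN2 at 413 and 10.0 CPM in GFP+ and GFP- cells. The giant protein titin, TTN, was 29.2-fold higher. The ventricular light chain MYL2 did not pass the filter, with 107 reads (4.00 CPM) in GFP+ and 0 reads in GFP- cells, at least 34.2-fold higher by the floor of 3 reads. The atrial light chain MYL7 and the embryonic and atrial MYL4 were at 1123 and 668 CPM in GFP+ cells and 66.3 and 35.0 CPM in GFP- cells. Fetal TNNI1 was 20.8-fold higher, and the adult isoform TNNI3 was at 27.6 against 13.1 CPM.

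The exception within the list was tropomyosin TPM1, at 2223 CPM in GFP+ and 1932 CPM in GFP- cells, a gene that stromal and smooth muscle cells also use. Reads of MYH6 and MYH7, and of the muscle actins, can fall in near-identical sequence. Only reads with a unique position were kept, so reads from identical stretches were lost, and the levels and split of these genes are uncertain.

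The promoters of the leading genes are shown because members of this group moved together. RefSeq windows (GRCh38.p14) were matched by symbol for 77 of the 100 genes with the largest rise and 74 of the 100 with the largest fall, each from 250 bases before to 50 after the start. Printed are the 250 bases before the start, 5′ to 3′ on the gene's strand. Capitals mark the MEF2 box and the GATA site AGATAAG in MYBPC3 (chr11:47352703-47352952, minus strand) and the CArG box, the core of serum response elements, in ACTC1 (chr15:34795550-34795799, minus strand).
MYBPC3: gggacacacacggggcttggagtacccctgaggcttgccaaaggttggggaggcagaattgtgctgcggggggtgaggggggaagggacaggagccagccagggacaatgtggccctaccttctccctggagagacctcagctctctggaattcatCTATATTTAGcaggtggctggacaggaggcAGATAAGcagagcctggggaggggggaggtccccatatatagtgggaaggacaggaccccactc
ACTC1: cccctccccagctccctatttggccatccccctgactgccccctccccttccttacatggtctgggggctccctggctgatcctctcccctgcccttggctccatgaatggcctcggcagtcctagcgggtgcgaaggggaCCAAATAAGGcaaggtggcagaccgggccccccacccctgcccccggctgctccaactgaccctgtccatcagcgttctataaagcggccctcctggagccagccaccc

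The CArG box, searched on both strands, was in 5 of the 77 windows of the largest rises (ACTA1, ACTC1, LDB3, MYL7 and MYOM1), which is 6.49%, in 3 of the 74 windows of the largest falls (4.05%; CD34, CHI3L1 and TRPC6), and in 1.29% of all 27305 windows of the table. The MEF2 box was in 6 of the 77 (CAPN3, HSPB3, KLHL41, MYBPC3, SMPX and TTN), or 7.79%, against 0.593% of all windows, and in 0 of the 74 windows of the largest falls. The site AGATAAG was in 7 windows of the rises, 1 of the falls and 2.63% of all windows. Among the 22 sarcomere genes with a window, 5 held the CArG box, 3 the MEF2 box and 4 the site AGATAAG. In the 9317 windows of genes past the filter, from which the rises and falls were drawn, the shares were 1.25% for the CArG box, 0.408% for the MEF2 box and 1.45% for AGATAAG. Genes named here for a match alone were chosen after their values were seen. A match is a run of letters and says nothing of binding.

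Calcium handling was higher in GFP+ cells at 15 of the 18 listed genes past the filter, with 1 lower and a median difference of 3.09. PLN (phospholamban, the brake of the calcium pump) was at 1115 against 59.7 CPM, and the pump ATP2A2 itself at 1502 against 300.0 CPM. RYR2 was at 243 and 17.7 CPM, and the sodium-calcium exchanger SLC8A1 at 408 and 46.6 CPM. The lower gene was SLN, sarcolipin, a small inhibitor of the pump known from atrial muscle, with 482 reads in GFP+ and 1371 reads (53.4 CPM) in GFP- cells (2.96-fold lower, interval 2.67 to 3.30). It went the opposite way to PLN in the same cells, and in the control it was at 0.907 and 14.9 CPM.

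Genes of the action potential gave 13 higher and 1 lower of 18, with a median difference of 2.34. HCN4, the pacemaker channel, was at 530.0 against 31.3 CPM (16.9-fold), and CACNA1D, the calcium channel of atrial and nodal cells, at 117 against 4.33 CPM (26.9-fold). KCNJ5, a subunit of the acetylcholine-gated atrial potassium channel, was 37.3-fold higher, while its partner KCNJ3 was 3.72-fold higher at 41.7 CPM. The atrial potassium channel KCNA5 was at 105 CPM in GFP+ and 95.9 CPM in GFP- cells and so did not separate the fractions. GJA1 (connexin 43) was lower, at 48.4 against 335 CPM (6.93-fold, interval 6.54 to 7.36). KCNJ2, which helps to hold the resting potential, stayed under the filter at 1.12 and 6.51 CPM. Of related potassium channel genes, KCNJ12 was at 31.45 against 7.05 CPM (4.46-fold higher) and KCNJ4 at 13.4 and 9.24 CPM, within 2-fold.

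The natriuretic peptide NPPA, a marker of atrial muscle, was at 131 CPM in GFP+ and 2.85 CPM in GFP- cells (45.9-fold, interval 36.4 to 58.7), and CORIN, the protease that activates it, at 129 and 2.49 CPM (51.7-fold). NPR3, the receptor that clears the peptide, was on the other side at 21.2 and 135 CPM (6.36-fold lower). In the list of peptides and cardiac surface proteins 6 of 9 genes past the filter were higher and 1 was lower (median 2.14). The surface proteins used to enrich cardiomyocytes differed among themselves: SIRPA was at 149 and 55.9 CPM, and VCAM1 at 94.6 and 109 CPM, higher in the GFP- library by less than 2-fold. Counting ignored strand, so reads in sequence that NPPA shares with an overlapping antisense gene could not be assigned by strand. Whether this raised or lowered the NPPA count was not tested.

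Among cardiac transcription factors 17 of 25 were higher in GFP+ cells and 3 lower (median 1.36), a wider spread than in the contractile genes. The sharpest separation after NKX2-5 was in SMYD1 (a muscle methyltransferase; 307 and 11.4 CPM), MYOCD (myocardin, the partner of serum response factor; 117 and 4.99 CPM) and TBX20 (90.4 and 4.21 CPM). GATA4 was at 603 and 192 CPM and GATA6 at 272 and 180.4 CPM, so that the GATA factors were also read in GFP- cells at substantial levels. The venous pole and atrial factors NR2F2, ISL1 and SHOX2 were 2.49-fold, 8.13-fold and 6.53-fold higher. The ventricular factor HEY2 was lower in GFP+ cells (8.15 against 24.0 CPM, within 2-fold after thinning), and IRX4, also ventricular, was higher at 38.3 against 2.10 CPM. TBX18, of the epicardium and sinus horn, was 12.2-fold lower, and HAND1 was at 3.74 and 13.8 CPM.

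Energy metabolism lay to the GFP+ side by less: 12 of 29 genes were higher, 2 lower and 15 within 2-fold (median 0.82, against 0.02 over all genes past the filter). The higher genes were led by muscle forms. CKM (muscle creatine kinase) was at 158 against 1.40 CPM (113-fold, interval 81.2 to 161), MB (myoglobin) at 65.5 against 1.40 CPM and COX6A2 (a muscle subunit of cytochrome oxidase) at 20.4 against 0.351 CPM. Enzymes of fatty acid oxidation used by most cells, such as HADHA (193 and 158 CPM) and ACADVL (374 and 295 CPM), lay within 2-fold. The 15 listed genes of the mitochondrial genome were all higher, between 1.10 and 1.75 on the log2 scale, and all genes of that genome took 14.9% of GFP+ and 5.56% of GFP- reads. Nuclear genes of complex I were higher by less: 5 of 36 passed 2-fold, a share near the 9.97% of all genes past the filter, with a median of 0.60, and those of complex IV gave 5 of 11 with a median of 0.95, which passed 1 under some scalings.

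**Figure D2:**
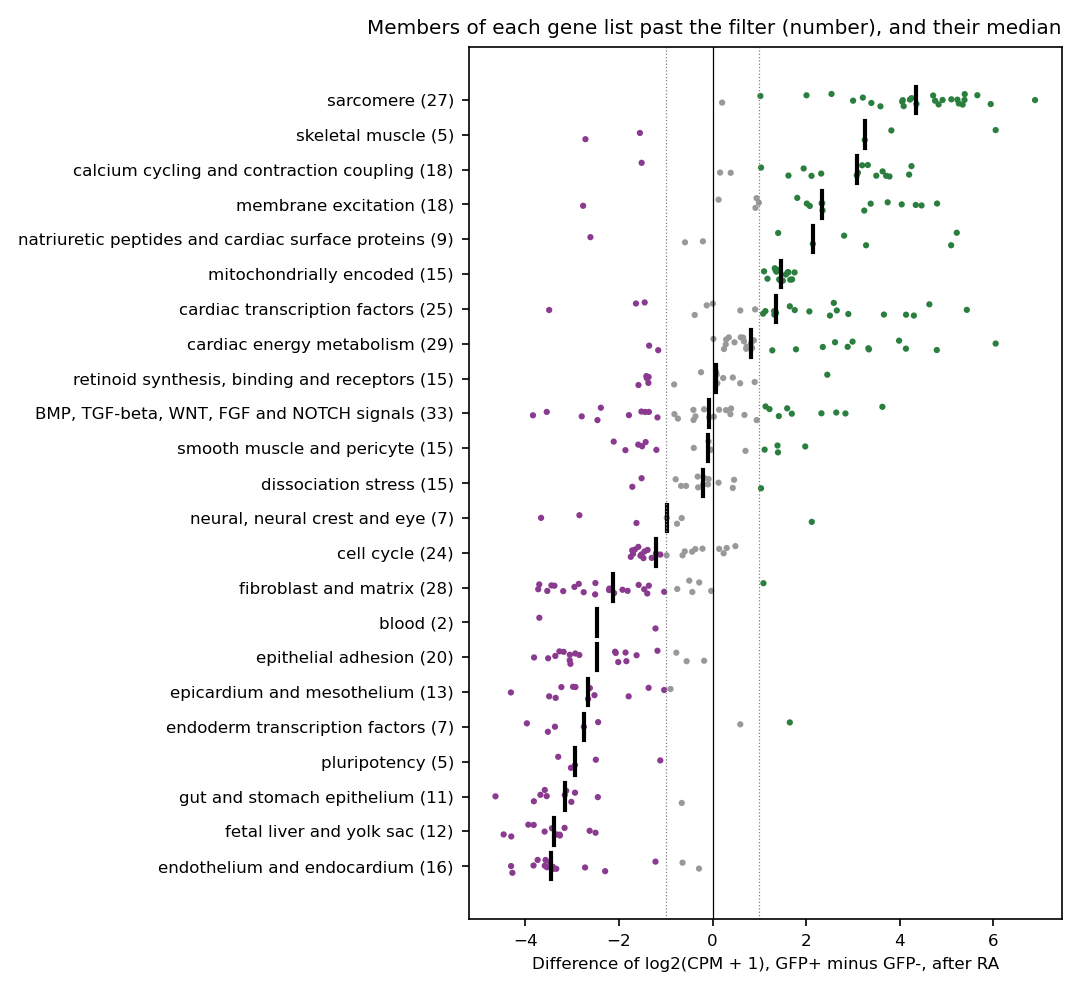
Difference of log2(CPM + 1) between GFP+ and GFP- cells after RA for each listed gene past the filter (points; green at least 2-fold higher, purple at least 2-fold lower, grey within), with the median of each list as a black bar and dotted lines at 2-fold. Lists of heart muscle lie on the right, with sarcomere genes at a median of 4.36, and endothelium on the far left at -3.45.

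On the GFP- side the most reads belonged to matrix. COL3A1, COL1A1, COL1A2 and FN1 (fibronectin) were among the 10 genes with the most reads in GFP- cells, at 24128, 22021, 12536 and 10097 CPM. In GFP+ cells they were at 8758, 3879, 1856 and 2184 CPM, and COL3A1 was also among the 10 genes with the most reads there. Of the fibroblast and matrix list 22 of 28 were lower in GFP+ cells and 1 higher (median -2.13). The small leucine-rich proteoglycans DCN and LUM, marks of mature fibroblasts, separated further than COL1A1, COL1A2 and COL3A1, at 115 against 1507 CPM (13.1-fold lower) and 53.7 against 724 CPM (13.5-fold lower). COL12A1, a collagen of dense connective tissue, had the largest difference of log2(CPM + 1) among collagens, at 77.2 against 1348 CPM (17.5-fold lower, interval 16.7 to 18.3). The growth factor receptor PDGFRA was the higher member, at 295 CPM in GFP+ and 139 CPM in GFP- cells, whereas PDGFRB was at 124 and 473 CPM.

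Among all collagen chains 21 of 35 were lower and 2 higher, the latter COL11A2 (172 and 27.0 CPM) and COL23A1 (175 and 44.4 CPM). The basement membrane collagen COL18A1 was at 1578 and 1514 CPM, without a difference of 2-fold.

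Smooth muscle genes did not fall on 1 side. Of 15 genes 4 were higher in GFP+ cells and 6 lower (median -0.09). MYH11, the smooth muscle myosin, was at 115 CPM in GFP+ and 28.4 CPM in GFP- cells (4.05-fold, interval 3.73 to 4.39), and MYLK, its light chain kinase, at 271 and 125 CPM. CNN1 (calponin) was 2.63-fold higher. TAGLN (transgelin) was 4.35-fold lower and NOTCH3, a receptor of mural cells, 3.65-fold lower. ACTA2 was at 498 and 511 CPM.

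The mesothelial and epicardial list was lower in GFP+ cells at 12 of 13 genes (median -2.66). ITLN1 (omentin, secreted by mesothelium) led it at 17.8 against 372 CPM (20.9-fold lower, interval 19.1 to 23.0). BNC1 was at 11.4 and 93.7 CPM, UPK3B at 5.95 and 70.0 CPM, and WT1, the factor that marks the epicardium, at 2.88 and 22.9 CPM.

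Endothelial genes had the lowest median of the lists, -3.45, with 14 of 16 lower. Their summed level was 236 CPM in GFP+ cells, with EGFL7 having the most reads, and 952 CPM in GFP- cells, with ENG having the most. The endothelial cadherin CDH5 was read 31 times in GFP+ and 1071 times in GFP- cells (1.16 and 41.7 CPM; 36.0-fold lower, interval 25.2 to 53.3). The tight junction gene CLDN5 was at 0.561 and 29.3 CPM, the receptor KDR at 9.69 and 142 CPM, and TEK at 1.87 and 33.1 CPM. Of the 15 largest falls 4 belong to vessels: CDH5, CLDN5, the lymphatic and venous receptor FLT4 (2.24 and 54.4 CPM) and the scavenger receptor STAB1 (2.39 and 54.6 CPM). NFATC1, an endocardial factor, was at 21.1 and 26.0 CPM.

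Genes of liver, yolk sac and gut formed the other large block of the GFP- side. All 12 fetal liver and yolk sac genes past the filter, of 22 listed, were lower in GFP+ cells (median -3.38), and their summed level was 74.5 CPM in GFP+ and 1212 CPM in GFP- cells. AFP (alpha-fetoprotein) was at 22.6 against 465 CPM (20.6-fold lower, interval 19.0 to 22.4). SERPINA1 (alpha-1 antitrypsin) was at 286 CPM in GFP- cells and 23.9-fold lower in GFP+ cells (interval 21.3 to 26.8). Also past the filter were the fibrinogen chains FGA, FGB and FGG, at 17.3, 75.1 and 16.3 CPM in GFP- cells, and ALB (albumin), at 2.95 and 21.4 CPM. ITIH2, a serum protease inhibitor chain made in liver, was 30.3-fold lower.

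The gut and stomach list had 11 of 28 genes past the filter and 10 of these lower (median -3.16), with summed levels of 38.6 CPM in GFP+ and 399.6 CPM in GFP- cells. CDH17, the cadherin of intestinal epithelium, had the largest fall in log2(CPM + 1) of any gene with a name, at 1.46 against 60.3 CPM (41.3-fold lower, interval 30.1 to 58.4). By the ratio of CPM, which rests on few reads in GFP+ cells, other genes fell further, such as CDX2, the hindgut factor, at 0.299 and 17.3 CPM (58.0-fold lower, interval 29.2 to 135). Intestinal APOA4 was at 8.04 and 115 CPM and the microvillus gene VIL1 at 1.65 and 30.8 CPM. Stomach genes were present beside intestinal ones: CLDN18 was at 20.0 CPM, CTSE at 29.0 CPM and TFF1 at 11.9 CPM in GFP- cells. FABP2, GKN2 and KRT20 had 0 reads in both RA libraries. Of the endoderm factors, 5 of the 7 past the filter were lower, among them HNF4A (0.823 and 17.9 CPM), FOXA1 (2.69 and 19.1 CPM), ONECUT2 (1.83 and 43.4 CPM) and PDX1 (0.299 and 13.9 CPM). GATA4 is on this list as well as on the cardiac one and was the higher member.

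The promoters of AFP (chr4:73435971-73436220, plus strand) and FGB (chr4:154562730-154562979, plus strand) are shown as the counterpart to those of the heart muscle genes, from the same RefSeq table and build. Capitals mark the site GTTAATNNT of the liver factor HNF1, which in FGB lies on the opposite strand.
AFP: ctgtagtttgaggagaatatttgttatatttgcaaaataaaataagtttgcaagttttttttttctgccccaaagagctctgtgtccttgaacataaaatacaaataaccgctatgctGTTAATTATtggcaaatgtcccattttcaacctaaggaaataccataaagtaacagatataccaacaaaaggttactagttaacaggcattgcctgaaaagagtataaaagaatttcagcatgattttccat
FGB: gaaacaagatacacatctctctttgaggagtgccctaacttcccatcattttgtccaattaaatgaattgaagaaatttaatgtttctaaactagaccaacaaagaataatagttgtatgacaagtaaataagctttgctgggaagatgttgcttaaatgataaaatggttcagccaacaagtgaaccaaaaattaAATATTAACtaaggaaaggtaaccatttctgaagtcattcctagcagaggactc
This site was in 6 of the 16 liver and yolk sac genes with a window (AFP, ALB, APOH, FGA, FGB and TM4SF4), in 4 of the 74 windows of the largest falls, in 2 of the largest rises and in 2.33% of all windows (0.977% of those of genes past the filter).

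Epithelial adhesion genes were lower in GFP+ cells at 17 of 20 (median -2.47). CDH1 (E-cadherin) was at 16.7 and 146 CPM, CLDN4 at 17.2 and 255 CPM, and EPCAM at 34.3 and 127 CPM. Keratins of simple epithelia were read in both fractions, with KRT8 at 383 and 1184 CPM and KRT18 at 129 and 545 CPM. FOXQ1, a forkhead gene of epithelia among the 15 largest falls, was at 0.785 and 27.6 CPM.

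**Figure D3:**
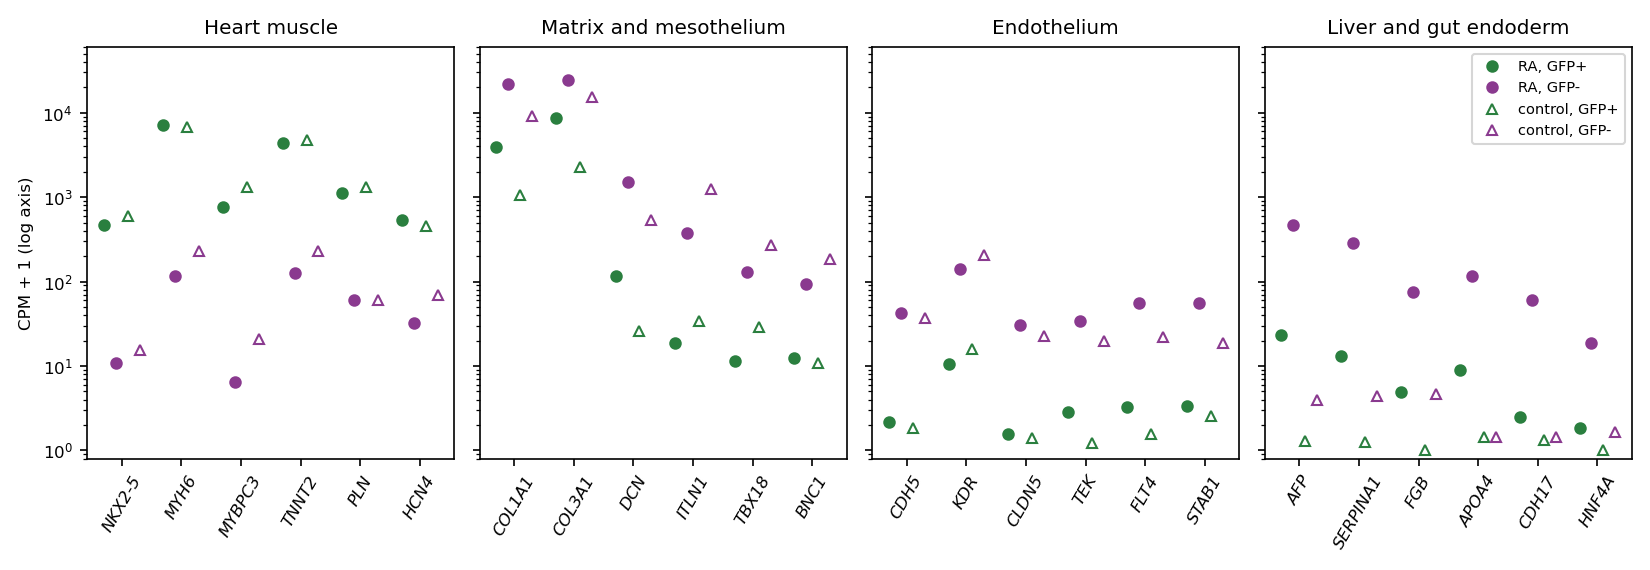
CPM + 1 on a log axis of 24 genes in the 4 libraries, in panels of heart muscle, matrix and mesothelium, endothelium, and liver and gut endoderm (circles RA, triangles control; green GFP+, purple GFP-). AFP reaches 465 CPM in the GFP- cells after RA and 2.98 CPM in those of the control, while CDH5 is at 41.7 and 35.6 CPM.

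Few markers of the remaining lineages passed the filter. Of 31 neural, neural crest and eye genes 7 passed the filter after RA, 3 lower and 1 higher in GFP+ cells (median -0.98). Their summed level was 179 CPM in GFP+ and 291 CPM in GFP- cells, STMN2 (stathmin 2) having the most reads in the latter at 72.7 CPM. Of 12 pluripotency genes 5 passed the filter and all 5 of these were lower (median -2.94), among them POU5F1 at 1.01 and 15.4 CPM. NANOG stayed under the filter at 0.112 and 0.974 CPM. POU5F1 has pseudogene copies, and reads that fit a copy equally well were not kept, so its level is uncertain. Blood genes summed to 17.2 and 63.7 CPM, RUNX1 having the most reads in both, with PTPRC (CD45) at 0 and 27 reads, HBE1 at 3 and 4 reads and HBG1 at 0 in GFP- cells; 2 of the list passed the filter, both lower. On the skeletal muscle list 3 of 5 were higher (median 3.25), namely ACTA1, CKM and MYOG, of which heart muscle also uses ACTA1 and CKM. The other 2, the troponin T genes TNNT1 and TNNT3 of slow and fast fibres, were lower, with differences of -2.72 and -1.55. MYOG was at 11.5 CPM in GFP+ cells, while MYOD1 had 9 reads in GFP+ and 15 reads in GFP- cells.

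Cell division genes were lower in GFP+ cells at 14 of 24 (median -1.20, which came within 2-fold with a pseudocount of 5 CPM). The mitotic genes MKI67, CDK1 and CCNB1 were 2.76-fold, 3.05-fold and 3.53-fold lower, whereas the replication helicase genes MCM3 and MCM4 were at 75.4 and 39.3 CPM in GFP+ and 53.6 and 35.6 CPM in GFP- cells. Of the early response genes that dissociation can induce, 12 of 15 were within 2-fold, a share near the 77.6% of all genes past the filter. FOS was at 1424 and 1513 CPM and EGR1 at 2143 and 1589.9 CPM. DUSP1 and HMOX1 were the lower members and HSPA1A, within 2-fold under some settings, the higher.

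Secreted signals were split between the fractions, 9 higher and 10 lower of 33 (median -0.07, of the other sign when all libraries were thinned to the smallest). Of the bone morphogenetic proteins, BMP5 was on the GFP+ side at 264 against 36.1 CPM, BMP7 at 235 against 18.1 CPM and BMP2 at 84.7 against 16.1 CPM. BMP4 was at 198 and 102 CPM, under 2-fold, and passed 2-fold under at least 1 alternative setting. Their secreted antagonist GREM1 was on the GFP- side at 11.5 against 86.0 CPM. The WNT antagonists SFRP2 and DKK2 were 14.1-fold and 21.3-fold lower in GFP+ cells, and SFRP5 was 2.34-fold higher. FGF18 was 6.66-fold higher and FGF2 3.65-fold lower. VEGFA was at 964 CPM in GFP+ and 319 CPM in GFP- cells, while its receptor KDR was 14.6-fold lower in GFP+ cells.

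The retinoid pathway was measured long after the end of RA treatment. Of 15 genes past the filter, 1 was higher, 5 were lower and 9 lay within 2-fold (median 0.08, of the other sign after the same thinning). Over all genes past the filter 9.97% were higher, 12.4% were lower and 77.6% lay within 2-fold. The enzymes that make RA were lower in GFP+ cells, ALDH1A1 at 22.4 against 60.9 CPM, ALDH1A2 at 39.3 against 103 CPM and RDH10 at 90.5 against 273 CPM. RXRG was the higher gene, at 13.2 against 1.60 CPM. The receptors RARA and RXRA were at 64.8 and 85.0 CPM in GFP+ and 61.0 and 80.6 CPM in GFP- cells. CYP26A1, which degrades RA and responds to it, had 1 read in GFP+ and 64 reads in GFP- cells. Of 39 HOX genes 5 passed the filter, and 2 were lower, HOXA2 at 0.561 against 10.4 CPM and HOXA3 at 4.00 against 35.8 CPM. HOXB2, HOXB3 and HOXB4 were between 28.9 and 53.8 CPM in GFP+ and between 38.3 and 55.8 CPM in GFP- cells.

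Several of the largest differences belong to no list. On the GFP+ side, TRH, the thyrotropin-releasing hormone precursor, was at 240.0 against 4.60 CPM (52.2-fold, interval 43.5 to 63.2). MYH7B, an ancient slow myosin chain, was 52.5-fold higher, APOBEC2, a muscle member of the deaminase family, 74.9-fold (interval 52.4 to 111), and SPHKAP, an anchor protein for protein kinase A, 45.3-fold. On the GFP- side stood EGFL6, a secreted matrix ligand, at 3.96 against 85.9 CPM, the collagenase MMP1 at 2.43 against 55.4 CPM, the pentraxin PTX3 at 5.27 against 100.3 CPM and lysozyme, LYZ, at 1.23 against 36.8 CPM.

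How far each fraction held the other's genes can be read from the lower level as a percent of the higher. For the sarcomere genes past the filter, the GFP- level had a median of 3.43% of the GFP+ level and a range from 0.643% (LMOD2) to 86.9% (TPM1). In the other direction, the GFP+ level had a median of 7.02% of the GFP- level for endothelial genes and 5.07% for liver and yolk sac genes. For the matrix list the lower level was 22.8% of the higher at the median, and for the mesothelial list 12.6%. Summed over the 29 matrix genes the GFP+ library had 24821 CPM and the GFP- library 90781 CPM, and COL3A1 had the most reads in both. Summed over the 32 sarcomere genes the values were 30592 and 2845 CPM, with ACTC1 and TPM1 having the most reads; TPM1 alone held 1932 CPM of the GFP- sum and 2223 CPM of the GFP+ sum. The part that other cell types, misplaced cells or free RNA play in these values was not tested.

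**Figure D4:**
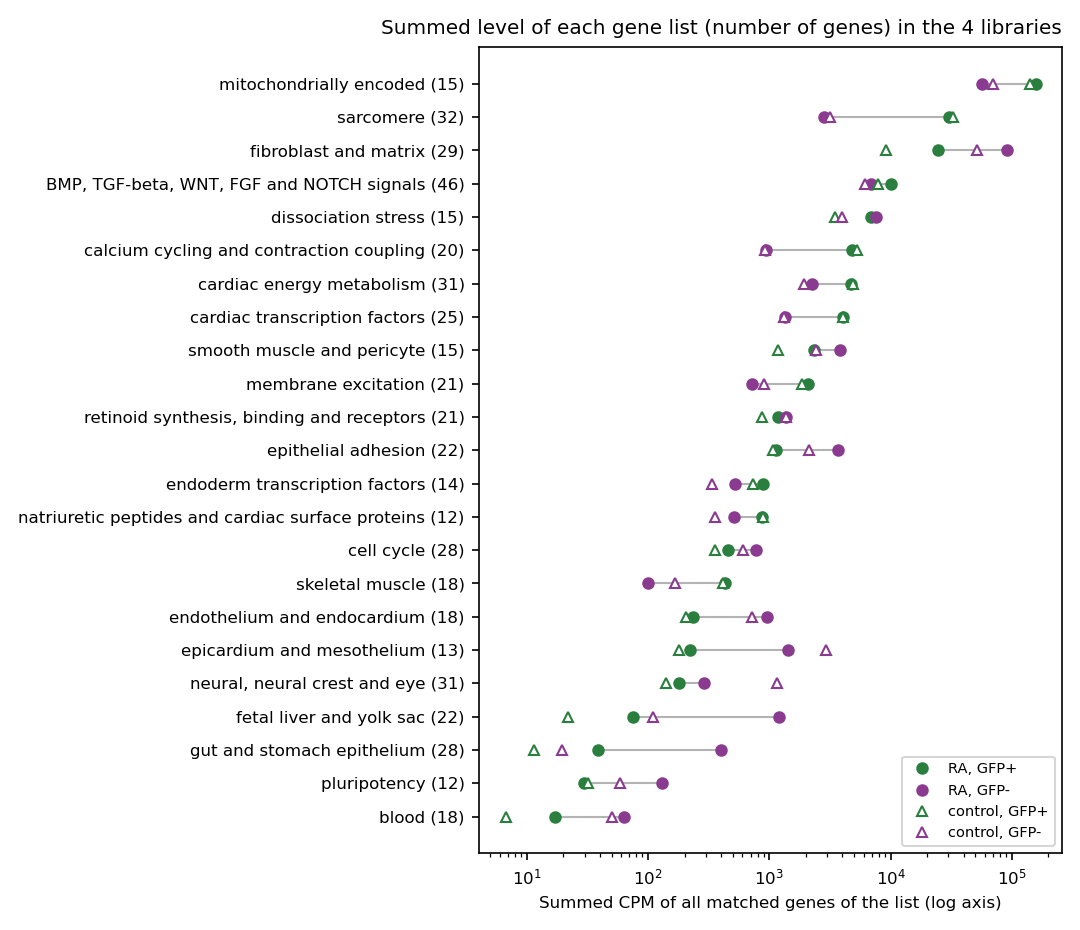
Summed CPM of all matched genes of each list on a log axis (circles RA, triangles control; green GFP+, purple GFP-; grey line between the RA fractions). Sarcomere genes sum to 30592 CPM in GFP+ and 2845 CPM in GFP- cells after RA, and fetal liver and yolk sac genes to 74.5 and 1212 CPM.

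The control culture shows which of these separations came with the sort in both cultures. The fraction differences of the 2 cultures share no library; across 12407 genes with 10 CPM or more in at least 1 of the 4 libraries they had a Pearson r of 0.810 and a Spearman rho of 0.766. This is a description across genes, which are not independent replicates and which share the scaling of all 4 libraries. In the control 1406 (11.9%) of 11806 genes were higher in GFP+ cells and 1567 (13.3%) lower. Of 11249 genes past the filter in both, 780 were higher in both, which is 71.2% of those higher after RA and 60.8% of those higher in the control. Lower in both were 935, or 79.3% and 69.1%. Among the same 11249, genes at least 2-fold apart in opposite directions numbered 9 (higher after RA) and 7 (lower after RA). These shares leave out genes past the filter in 1 culture only. After RA only, 601 genes passed it, 295 (49.1%) lower and 86 (14.3%) higher in GFP+ cells. In the control only, 557 passed it, 213 lower and 124 higher.

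Heart muscle, matrix, mesothelium and endothelium separated the fractions in both cultures. Sarcomere genes had a median difference of 4.36 after RA and 4.35 in the control, and endothelial genes -3.45 and -3.45. Matrix genes had medians of -2.13 and -3.18, and mesothelial genes -2.66 and -3.31. The summed matrix level was 24821 CPM after RA and 9167 CPM in the control for GFP+ cells, and 90781 and 51839 CPM for GFP- cells. No difference between the cultures was tested.

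The liver and gut block was seen in the GFP- cells after RA. Of the 22 liver and yolk sac genes, 12 passed the filter after RA and 1 (TTR) in the control, where the summed level was 22.0 CPM in GFP+ and 110.1 CPM in GFP- cells. AFP was at 0.279 and 2.98 CPM and SERPINA1 at 0.244 and 3.41 CPM in the control fractions. The gut and stomach list gave 11 genes past the filter after RA and 1 in the control, and CDH17 had 9 and 2 reads in the control fractions. Neural and eye genes were the opposite case, with 7 past the filter after RA and 19 in the control, and a summed level in GFP- cells of 291 and 1149 CPM.

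The genes whose fraction difference moved most between the cultures fall into a few kinds. Higher in GFP- cells after RA and low throughout the control were SPINK1 (a trypsin inhibitor; 5.98 and 94.7 CPM after RA, 2.55 and 0.426 CPM in the control), ITIH2 (85.1 CPM in GFP- cells after RA, 0.213 CPM in those of the control), the zinc transporter gene SLC39A5 (22.3 CPM; 0 reads) and VTCN1, an immune checkpoint ligand of epithelia (20.6 CPM; 0 reads). Higher in GFP+ cells after RA and lower in those of the control were TRPM3, a cation channel (18.9 and 6.63 CPM after RA, 3.14 and 65.8 CPM in the control), and DACH2, a transcription cofactor (14.6 and 1.91 CPM; 0.384 and 5.11 CPM). The same held for MYH11, the receptor subunit gene GABRB2 and the cadherin CDH4, while ERBB3, a neuregulin receptor, went the other way (11.1 and 63.5 CPM; 46.3 and 9.58 CPM). NFASC, a cell adhesion gene of nerve and heart muscle, separated the fractions after RA at 54.3 and 1.01 CPM (53.6-fold, interval 36.4 to 82.3) and was at 7.47 and 4.05 CPM in the control. MOXD1 and ICAM5 separated the control fractions (176 and 10.7 CPM; 81.0 and 3.41 CPM) and lay within 2-fold after RA, at 44.5 and 68.6 CPM and 23.1 and 27.7 CPM. NELL2 and CNTN2, which are known from neurons, were lower in GFP+ cells of the control (5.55 and 57.5 CPM; 1.01 and 22.4 CPM) and did not differ by 2-fold after RA (18.1 and 10.3 CPM; 1.27 and 0.818 CPM).

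**Figure D5:**
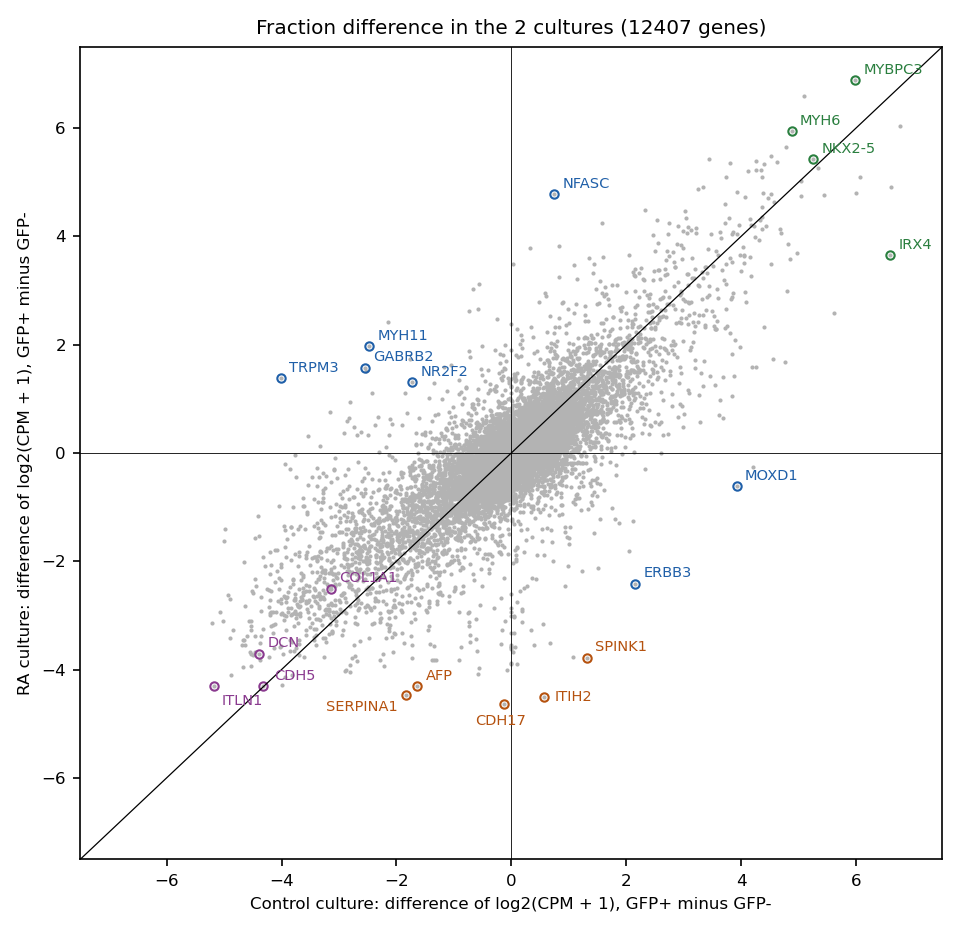
Difference of log2(CPM + 1), GFP+ minus GFP-, in the control culture (horizontal axis) and the RA culture (vertical axis) for 12407 genes, with the line of equal differences in black. MYBPC3 and CDH5 lie near the line, CDH17 and ITIH2 lie low at a control difference near 0, and MYH11 and ERBB3 lie in quadrants of opposite sign.

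Among the atrial and ventricular factors the fraction difference was unlike in the 2 cultures for several genes. NR2F2 was at 534 (GFP+) and 214 (GFP-) CPM after RA and at 27.0 and 91.4 CPM in the control, so that it was higher in GFP+ cells after RA and lower there in the control. SHOX2 differed by 2.65 after RA and -0.58 in the control, and ISL1 by 2.90 and 0.61, on the log2 scale. IRX4 was 18.2-fold higher in GFP+ cells after RA (interval 13.8 to 24.4) and 162-fold in the control (interval 78.4 to 402). The control ratio rests on 7 reads in GFP- cells. The GFP+ level of IRX4 was 241 CPM in the control against 38.3 CPM after RA. Whether these differences of differences exceed the spread between cultures was not tested, as each culture was sorted and sequenced 1 time.

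The comparison rests on 1 library per fraction from 1 culture, so the spread between sorts, cultures and libraries is unknown, and every interval covers counting alone. CPM are shares of a library, and a gene can be lower because others take more reads. The fractions are mixtures, and the lists name cell types by known markers and were not checked at the level of single cells. The control GFP- library is shallow, so that 3 reads there are 0.639 CPM and its low genes are less certain.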

How the data were processed

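RNA was sequenced from 4 sorted fractions, 1 strand-specific paired-end library each, and the RA pair is compared. Per the submitters' processing notes, the authors aligned reads to a custom hg19 genome with GSNAP, kept unique positions, sorted with SAMtools 0.1.18 and counted with HTSeq 0.6.1p1 without strand. The deposited values are counts per Ensembl gene. The Ensembl release is not given in the sources used here. Totals were 28125727 and 26222787 reads for GFP+ and GFP- cells after RA.

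CPM used TMM factors of all 4 libraries (edgeR 4.0.16, R 4.3.3), which were 0.951, 0.979, 1.00 and 1.07 for RA GFP+, RA GFP-, control GFP+ and control GFP- cells. At least 4 reads were found for 23781 genes in the RA GFP+ and 24550 genes in the RA GFP- library. Differences, intervals and medians were computed in Python 3.11.15 (numpy 2.4.6, pandas 2.3.3, scipy 1.17.1), with Clopper-Pearson intervals for ratios at the 95% level. The calling rule was tested on simulated data with counting noise alone, which says nothing of the spread between cultures. Names were matched by Ensembl identifier for 43521 of 60234 genes, with hg19 coordinates from GENCODE lifted to GRCh37.

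Genes named in the text are the 15 named genes with the largest positive and the 15 with the largest negative difference past the filter, the 10 with the most reads in each RA library, the 8 with the largest and the 8 with the smallest change of the difference between cultures, and members of 23 marker lists and 14 gene families. Members and lists were chosen with earlier results of these data known. Alternatives changed the scaling (DESeq2 1.42.0 size factors among them), the pseudocount, the filter, the fold threshold and the depth.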

Additional observations from a re-analysis of the deposited data

Results flagged for a closer look

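Some genes past the filter in both cultures differed by at least 2-fold one way after RA and at least 2-fold the other way in the control. Of these, 9 were higher and 7 lower in GFP+ cells after RA, and 6 of them are given here. The change of the difference, RA minus control on the log2 scale, was 5.39 for TRPM3, 4.46 for MYH11, 4.12 for GABRB2, 3.04 for NR2F2, 2.96 for MYLK and -4.57 for ERBB3. The first 5 were higher in GFP+ cells after RA and lower there in the control, and ERBB3 was the reverse. Genes outside these 6 also went the way of ERBB3, such as HPN (change -3.86) and ROBO2 (-3.41), so the 6 do not give the balance of directions. TRPM3 came within 2-fold after RA, at a difference of 0.98, when all libraries were thinned to the smallest. In GFP+ and GFP- cells GABRB2 was at 21.2 and 6.43 CPM after RA and 2.09 and 17.0 CPM in the control. MYH11 was at 3.35 and 23.2 CPM and MYLK at 18.4 and 68.8 CPM in the control fractions. With 1 library per fraction and culture, the difference between the cultures was not tested for any of these genes.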

How the results depend on the processing

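The counts after RA ran from 926 to 1283 higher and from 1239 to 1536 lower genes under 5 scalings, 2 pseudocounts and thinning of all libraries to the smallest. The filter and the threshold moved them by over 1.5 times, as they set which genes are counted. With a filter of 1 CPM or none, 1847 genes were higher and 2546 lower after RA and 2646 and 3191 in the control. With a filter of 50 CPM these were 611 and 611 after RA and 687 and 648 in the control, and with a threshold of 4-fold 368 and 573 after RA and 440 and 749 in the control. The Pearson r of the differences in the 2 cultures was 0.718 with 1 CPM and 0.868 with 50 CPM in at least 1 library.

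Of 37 lists and families 24 had a median past 2-fold, and 0 of these turned direction under 8 alternatives. Those of cell cycle genes and integrin subunits came within 2-fold under at least 1 alternative, and those of complex IV subunits, neural and eye genes and potassium channels passed it. Of 217 genes 178 were past 2-fold after RA, 0 turned direction and 9 came within 2-fold under an alternative, HEY2, HSPA1A, ITGA10, TNNI3 and TRPM3 among them. The scalings moved the median over all genes past the filter by at most 0.066, and a pseudocount cannot change the sign of a gene's difference. A turn from past 2-fold was thus hardly possible under these settings, and its absence in lists and genes says little. The RA culture has 1 library per fraction, so no library was left out, and no model of the sort across the 2 cultures was fitted.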

Other observations

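Gene families gathered by symbol add to the lists. Of laminin chains 6 of 11 were lower in GFP+ cells and 0 higher (median -1.51): LAMB1 was at 206 CPM in GFP+ and 1386 CPM in GFP- cells, while LAMA2, the chain of muscle basement membrane, was at 202 and 109 CPM and LAMB2 at 1087 and 673 CPM. Of integrin subunits 11 of 20 were lower and 2 higher (median -1.07, which came within 2-fold under 3 alternatives), the higher ones being ITGA7, the laminin receptor of muscle (143 and 52.5 CPM), and ITGA10 (17.7 and 7.37 CPM). The epithelial partner ITGB4 was at 10.1 and 78.0 CPM. The median of all collagen chains was -1.58.

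Claudins were lower at 9 of 10 (median -2.73), the exception being CLDN12 at 41.5 and 40.3 CPM. Keratins were lower at 8 of 9 (median -1.84), with KRT17 at 9.95 and 97.7 CPM and KRT10 within 2-fold at 31.7 and 40.8 CPM. All 5 apolipoproteins past the filter were lower (median -3.26). APOE, which many cell types make, was at 424 and 1699 CPM and APOA1, of liver and gut, at 12.8 and 131 CPM.

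Potassium channel genes were on both sides, with 16 higher and 5 lower of 33 (median 0.99, which passed 1 under some settings). KCNIP2, the subunit of the transient outward channel, was at 128 against 3.62 CPM (35.2-fold), and KCNQ1, of the slow delayed rectifier, at 94.6 against 9.12 CPM. KCNMA1, the calcium-activated channel of smooth muscle, was at 2.54 against 16.8 CPM.

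Developmental factors split by family member. T-box factors gave 3 higher and 2 lower of 6 (median 0.57), with TBX5 at 122 and 20.6 CPM and TBX1 at 8.83 and 39.9 CPM. Iroquois factors gave 3 higher and 1 lower of 5 (median 1.18), with IRX3 at 158 and 15.1 CPM. SOX factors gave 1 higher and 5 lower of 10 (median -0.86), the lower ones including SOX18, of endothelium (1.46 and 26.3 CPM), and SOX9 (7.18 and 51.6 CPM). Of 20 forkhead factors 13 lay within 2-fold, 6 were lower and 1 higher (median -0.13). The shares of all genes past the filter were 77.6%, 12.4% and 9.97%. HOX genes had a median of -0.44.

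Long noncoding RNAs leaned to the GFP+ side, with 84 of 211 past the filter higher and 14 lower, against 1015 and 1414 of 11184 protein-coding genes. Chosen after its values were seen, ENSG00000268518, a long noncoding gene without a name (hg19 chromosome 19, 50990067 to 50990895, minus strand), was at 1176 against 11.2 CPM (106-fold) after RA and at 1763 against 50.5 CPM in the control. Processed pseudogenes gave 9 higher and 26 lower of 189, where all genes past the filter gave 9.97% higher and 12.4% lower.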
